A study of Mus musculus with 8 samples.

Results

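Glutathione peroxidases are enzymes that reduce hydrogen peroxide and lipid hydroperoxides at the expense of glutathione. The mouse genome names 8 of them, Gpx1 to Gpx8, and all 8 symbols were found among the 19348 genes of the deposited count table, so the family was followed gene by gene through every library. RNA-seq had been carried out on liver and on epididymal white adipose tissue (eWAT, the fat of the testicular region, attached to the epididymis) of male C57BL/6 mice aged 12 weeks, kept on normal chow and killed after 16 h without food. Crtc1-/- mice, made with CRISPR/Cas9 and a pair of guide RNAs directed at the region of exons 2 and 4 of the CREB coactivator gene Crtc1, were set against Crtc1+/+ unedited littermates, the edit being present in the whole body and no Cre or transgene being used. Each tissue and genotype had 2 libraries, 8 in all, and the labels do not say which liver and eWAT libraries came from 1 mouse.

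Members of the family differ in where they act. Gpx1 is the abundant enzyme of the cytosol and mitochondria, Gpx2 that of the gut epithelium, Gpx3 is secreted into plasma, and Gpx4 reduces lipid hydroperoxides inside membranes and so restrains ferroptosis. Gpx5 is secreted by the epididymis onto maturing sperm, Gpx6 was described in olfactory epithelium, and Gpx7 and Gpx8 are residents of the endoplasmic reticulum. The classical members carry selenocysteine at the catalytic site, written in the message as an in-frame TGA codon, while the others use cysteine.

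The catalytic codon of each member is shown to place it in one of these classes. The sequences are coding stretches of 27 bases read 5′ to 3′ from GENCODE M21 transcripts on GRCm38, each within 1 exon, and the capitals mark the catalytic codon. For Gpx1 to Gpx4 it is the annotated selenocysteine, and for Gpx5 to Gpx8 it is the codon aligned with that of Gpx1.
Gpx1, chr9:108339439-108339465, plus strand, exon 1 of 2: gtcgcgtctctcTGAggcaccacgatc
Gpx2, chr12:76795244-76795270, minus strand, exon 1 of 2: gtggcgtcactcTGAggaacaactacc
Gpx3, chr11:54907244-54907270, plus strand, exon 2 of 5: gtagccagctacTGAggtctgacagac
Gpx4, chr10:80054725-80054751, plus strand, exon 3 of 7: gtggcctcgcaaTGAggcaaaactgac
Gpx5, chr13:21291324-21291350, minus strand, exon 2 of 5: gtggctacctatTGCggtctgacaatc
Gpx6, chr13:21313765-21313791, plus strand, exon 2 of 5: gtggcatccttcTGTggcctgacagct
Gpx7, chr4:108403418-108403444, minus strand, exon 2 of 3: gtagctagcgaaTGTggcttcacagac
Gpx8, chr13:113045649-113045675, minus strand, exon 2 of 3: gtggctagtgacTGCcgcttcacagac
Each of Gpx1 to Gpx4 had 1 in-frame TGA, and Gpx5 to Gpx8 had 0. A cysteine codon stood in its place, TGC in Gpx5 and Gpx8 and TGT in Gpx6 and Gpx7.

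Library totals ran from 16560070 to 19721464 counts, and Pearson correlations of log2 CPM (counts scaled to a common library total) between replicates were 0.877 to 0.981. Crtc1 itself was not lower in libraries with the Crtc1-/- label. It was at 58.5 and 33.6 CPM in eWAT with the Crtc1-/- label and at 32.5 and 33.7 CPM in eWAT with the Crtc1+/+ label (log2 fold change 0.48, adjusted p = 0.396 by edgeR's quasi-likelihood test), and in liver at 22.1 and 18.0 CPM against 11.7 and 9.86 CPM (0.89, adjusted p = 0.184), and the genotypes are therefore given as labelled. These counts are of the whole gene and do not single out the edited exons. Hepatocyte markers held 18.97% to 22.4% of the counts in liver. In eWAT all 13 adipocyte markers were above 3 counts in every library, but they held only 0.263% and 0.402% of counts in the libraries with the Crtc1+/+ label against 4.71% and 2.25% in those with the Crtc1-/- label. Markers of the epididymis, the sperm duct beside this fat pad, held 4.98% and 5.46% in eWAT with the Crtc1+/+ label and at most 0.00403% in eWAT with the Crtc1-/- label. Hepatocyte markers held 10.1% of counts in 1 eWAT library, replicate 2 with the Crtc1-/- label, against 0.124% to 0.638% in the other eWAT libraries.

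Levels of different members were compared on the FPKM scale, which divides by transcript length and library total. In liver with the Crtc1+/+ label the order was Gpx1, Gpx4, Gpx3, Gpx7, Gpx5, and the ranges of these 5 did not overlap. Gpx1 was at 2528 and 2156 FPKM and made up 81.9% and 83.1% of the summed FPKM of the 8 genes. Gpx4 followed at 543 and 426 FPKM, and Gpx3 at 13.1 and 8.96 FPKM. Gpx2, Gpx6 and Gpx8 lay between 0 and 0.28 FPKM, and their ranges overlapped. In eWAT with the Crtc1+/+ label Gpx5 stood first instead, at 31621 and 38347 FPKM, and the secreted Gpx3 came next at 3253 and 2169 FPKM. Gpx4, Gpx1 and Gpx8 followed in separate ranges, and Gpx6 and Gpx7 overlapped between 21.2 and 34.1 FPKM. In eWAT with the Crtc1-/- label Gpx1 (1793 and 2130 FPKM), Gpx3 (1968 and 1574 FPKM) and Gpx4 (1798 and 1060 FPKM) had overlapping ranges, and no other member exceeded 64.5 FPKM. The cytosolic, the secreted and the membrane-lipid enzyme thus shared that group, whereas Gpx5 led where the genotype label was Crtc1+/+.

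**Figure D1:**
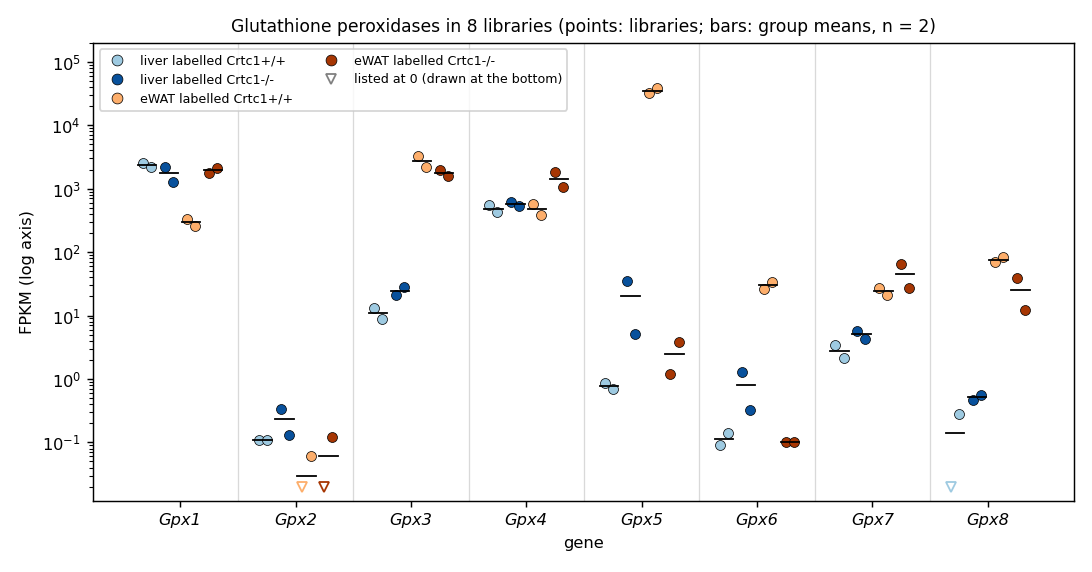
FPKM on a log axis for each of the 8 genes, with 1 point per library, a bar at each group mean (n = 2) and open triangles for libraries listed at 0. Gpx5 spans the widest range, from 0.69 FPKM in liver to 38347 FPKM in eWAT with the Crtc1+/+ label, and Gpx2 stays at or under 0.34 FPKM throughout.

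Together the 8 genes took 5.16% and 5.91% of all counts in eWAT with the Crtc1+/+ label, 0.588% and 0.504% in eWAT with the Crtc1-/- label, and 0.168% to 0.273% in liver. Gpx5 accounted for the first of these. Without Gpx5 the summed FPKM of the family was 4282 and 2953 in eWAT with the Crtc1+/+ label and 5663 and 4803 in eWAT with the Crtc1-/- label, so the ranges were then in the opposite order and did not overlap.

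**Figure D2:**
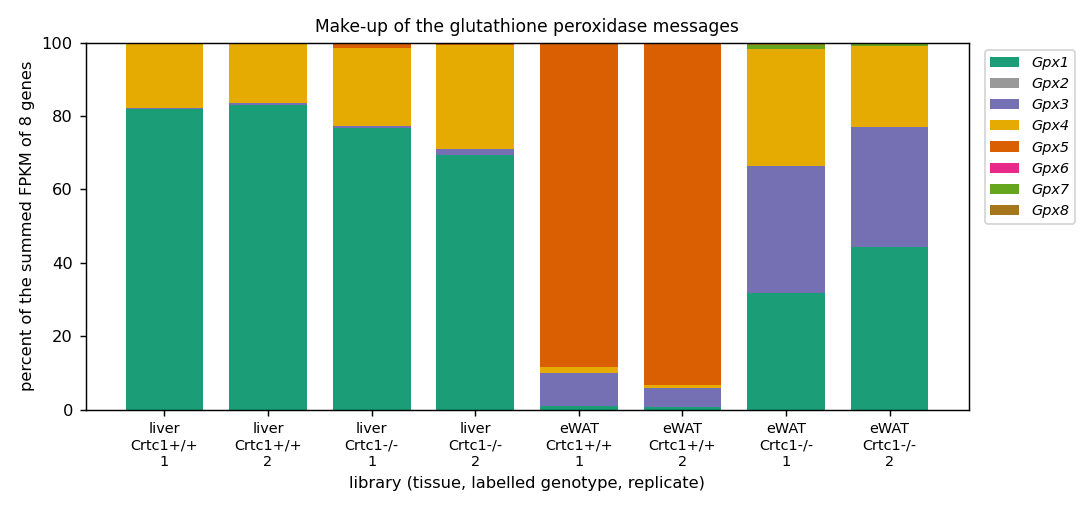
Percent of the summed FPKM of the 8 genes taken by each gene, 1 bar per library, starting at 0. Gpx1 and Gpx4 fill nearly all of the liver bars, Gpx5 takes 90.5% on average in eWAT with the Crtc1+/+ label, and Gpx1, Gpx3 and Gpx4 share the bars of eWAT with the Crtc1-/- label.

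The first question was what the Crtc1 genotype label went with in eWAT, one of the tissues in which the study followed the obesity of these mice. Of the 8 members, 7 passed the expression filter. Gpx5 and Gpx6 fell, Gpx1 rose, and Gpx3, Gpx4, Gpx7 and Gpx8 did not pass the test (edgeR, quasi-likelihood, adjusted p below 0.05). Among all 15391 genes tested, 6.65% were called higher and 5.54% lower at that threshold, and the median log2 fold change was -0.05 against -0.29 for the 7 members. Whether genotype groups overlapped is given below as a description only. With 2 against 2, groups that do not overlap reach a two-sided p of 0.333 in an exact permutation test. The share of all genes with such groups was not counted.

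Gpx5, the epididymal enzyme, was at 1.81 and 7.01 CPM (here scaled within the tissue by the trimmed mean of M-values, TMM) in eWAT with the Crtc1-/- label and at 40768 and 50602 CPM in eWAT with the Crtc1+/+ label. Both libraries of one genotype lay far outside the range of the other. The group means were 4.41 ± 3.67 and 45685 ± 6953 CPM (SD, n = 2). The log2 fold change was -13.34 (SE 1.56, adjusted p = 0.0184 by edgeR's quasi-likelihood test), and it ran from -14.65 to -12.66 with 1 library left out. Gpx6, its closest neighbour on the chromosome, had 2 counts in each library with the Crtc1-/- label and 534 and 658 counts in those with the Crtc1+/+ label. As 2 counts are within the floor of 3 counts taken per library, its level was at least 144-fold lower, with an adjusted p of 0.0121 from the same test. It passed the expression filter through the Crtc1+/+ libraries alone, so that its call follows in part from the filter. The spread of Gpx5 between the replicates with the Crtc1-/- label, 33 and 101 counts, was itself wider than counting error, whose exact 95% Poisson intervals ran from 22.7 to 46.3 and from 82.3 to 123.

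The fall of Gpx5 and Gpx6 moved with the epididymis markers. All 23 of these were lower in eWAT with the Crtc1-/- label, 22 passed the test, and their median log2 fold change was -12.32. Spag11b, a defensin-like gene, went from 10562 and 11672 CPM to 0.44 and 1.11 CPM, and the lipocalin Lcn8 from 7292 and 6276 CPM to 0.27 and 1.32 CPM. In the libraries with the Crtc1-/- label 7 and 6 of the 23 markers were at 0, and 13 in each were above 3 counts. Markers at 0 there passed the filter through the Crtc1+/+ libraries. Their calls thus follow in part from the filter, and their fitted values, which enter the median, are no bounds. Sperm markers such as Prm1 and Prm2 were lower in 6 of 6 cases, of which 1 passed the test, and held 0.109% and 0.0484% of counts in eWAT with the Crtc1+/+ label against 0.01% and 0.00113%. The part of these markers in the Gpx5 and Gpx6 result was not tested. In tissue RNA, fewer cells of a type cannot be told apart from less RNA in each cell.

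Gpx5 and the summed markers stayed within a ratio of 0.61 to 1.25 in every library but one. Gpx5 had 0.93 and 1.02 counts for each count of the 23 summed markers in eWAT with the Crtc1+/+ label, and 1.09 and 1.25 in liver with the Crtc1-/- label. In eWAT with the Crtc1-/- label, replicate 1, the ratio was only 0.044, from 33 Gpx5 counts beside 745 marker counts. There Crisp1, a cysteine-rich secretory protein of the epididymis, had 348 counts and the carboxylesterase Ces5a had 176, whereas Lcn8 had 5. In replicate 2 the ratio was 0.61. The ratio of Gpx6 to Gpx5 was not fixed, with 0.63 and 0.67 counts per 1000 Gpx5 counts in eWAT with the Crtc1+/+ label and 27.7 in liver with the Crtc1-/- label, replicate 1, where Gpx6 had 27 counts (exact 95% Poisson interval 17.8 to 39.3).

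**Figure D3:**
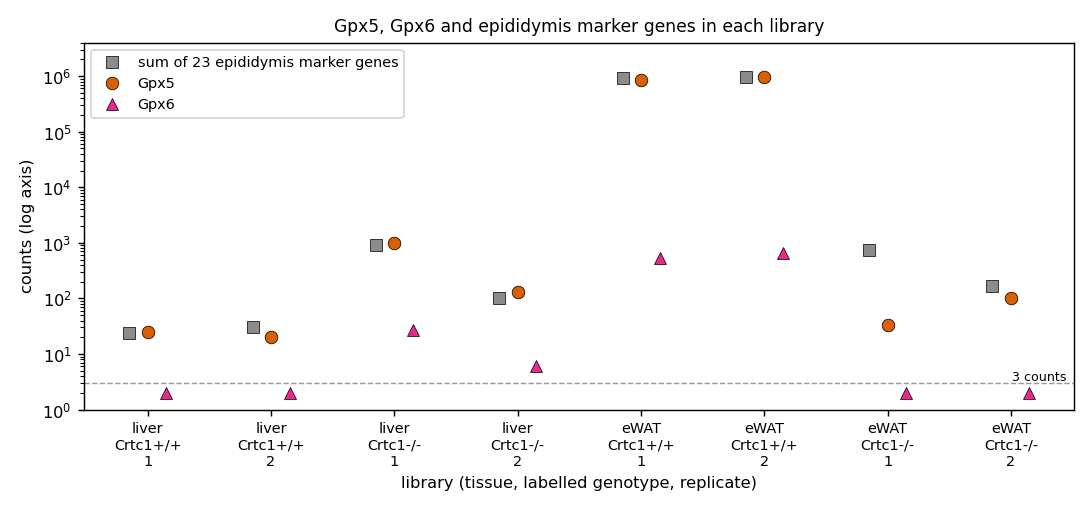
Counts on a log axis in each of the 8 libraries for Gpx5 (circles), Gpx6 (triangles) and the sum of 23 epididymis marker genes (squares), with a dashed line at 3 counts. Gpx5 lies beside the marker sum everywhere except in eWAT with the Crtc1-/- label, replicate 1, where 33 counts stand against 745.

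Gpx5 (chr13:21286429-21292731, minus strand) and Gpx6 (chr13:21312125-21319624, plus strand) lie head to head on GRCm38, with annotated starts 19394 bp apart in GENCODE. Their upstream sequence is shown because the pair fell together. The RefSeq gene model of Gpx6 spans a longer stretch, from base 21295465, but the RefSeq promoter table (GRCm38.p6) counts from a start at base 21312203 for Gpx6 and 21292686 for Gpx5. The stretches run from 250 to 80 bases before these table starts, and the capitals mark the letters AGGAAG, a core bound by ETS factors of the PEA3 group.
Gpx5, chr13:21292766-21292936, minus strand: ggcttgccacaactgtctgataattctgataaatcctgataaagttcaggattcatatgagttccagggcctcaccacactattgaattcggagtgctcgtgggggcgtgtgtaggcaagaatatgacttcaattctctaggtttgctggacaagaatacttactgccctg
Gpx6, chr13:21311953-21312123, plus strand: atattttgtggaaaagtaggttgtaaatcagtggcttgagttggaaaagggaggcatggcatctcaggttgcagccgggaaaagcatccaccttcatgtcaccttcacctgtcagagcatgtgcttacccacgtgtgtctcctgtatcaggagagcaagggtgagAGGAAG
Whole windows of 300 bases were searched on both strands for AGGAAG, for the androgen receptor half-site AGAACA and for the antioxidant response core TGACNNNGC. Among 32851 such windows, 35.4% held the first, 19% the second and 12.4% the last. The Gpx5 window held none of them, and the Gpx6 window held AGGAAG at base -85 and AGAACA on the minus strand at base 39 from the start. None of the 11 windows of the 8 members held TGACNNNGC. Of the 6 other genes counted within 150000 bp of the pair, Pgbd1 had 29 and 32 counts in eWAT with the Crtc1+/+ label and 4 and 3 with the Crtc1-/- label. Zscan12, the nearest on the Gpx6 side, had 134 and 131 counts against 70 and 62, and Zkscan3 had 242 and 318 against 264 and 205. None of the 6 came near the change of Gpx5 or Gpx6 in counts.

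Gpx1, the abundant peroxide-reducing enzyme, rose in eWAT. It stood at 1640 and 2377 CPM in both libraries with the Crtc1-/- label and at 258 and 213 CPM in those with the Crtc1+/+ label. The groups did not overlap, and their means were 2008 ± 521 and 236 ± 32.3 CPM (SD, n = 2). The log2 fold change was 3.09 (SE 0.46, adjusted p = 0.0254 by edgeR's quasi-likelihood test). Hepatocyte markers were higher in 13 of 13 cases, with 1 past the test and a median log2 fold change of 4.08. Without replicate 2 with the Crtc1-/- label, in which they made up 10.1% of counts, the Gpx1 fold change was 2.77 (adjusted p = 0.00666 from the same test). Replicate 1, with 0.592% hepatocyte marker counts, was within the range of 0.124% to 0.638% of the other genotype, and Gpx1 was at 1640 CPM there. The part of hepatocyte RNA in the Gpx1 values was not tested. The adipocyte markers moved with Gpx1, 13 of 13 higher and 10 past the test with a median log2 fold change of 3.81, as did all 5 endothelial markers with a median of 3.56, and their part in the rise was not tested.

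Gpx4, the guard against lipid hydroperoxides, was at 1487 and 1072 CPM in eWAT with the Crtc1-/- label and at 415 and 284 CPM in eWAT with the Crtc1+/+ label. These groups did not overlap either, but the log2 fold change of 1.87 (SE 0.43) had an adjusted p of 0.0563 by edgeR's quasi-likelihood test. It passed at 0.05 in 7 of 14 alternative analyses, among them DESeq2 with an adjusted p of 6.79e-06. Part of its reads may not be placed uniquely. Of its 50-base runs, a length chosen here, 34.7% also occur in the transcripts of the pseudogene Gpx4-ps2 or of AC122253.3. How reads from such runs were counted is not known.
Gpx3, the plasma enzyme, was at 2743 and 2665 CPM with the Crtc1-/- label and at 3928 and 2700 CPM with the Crtc1+/+ label. These ranges overlapped, and the log2 fold change was -0.29 (SE 0.49, adjusted p = 0.697 by edgeR's quasi-likelihood test). No difference in Gpx3 beyond the spread between replicates was seen, and without replicate 1 with the Crtc1+/+ label its sign turned, at 0.01 on the log2 scale.

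The endoplasmic reticulum members gave values in opposite directions, neither past the test. Gpx7 was at 70.0 and 36.2 CPM with the Crtc1-/- label and at 25.5 and 20.5 CPM with the Crtc1+/+ label (log2 fold change 1.21, SE 0.42, adjusted p = 0.124 by edgeR's quasi-likelihood test). Gpx8 was at 32.1 and 12.4 CPM against 50.5 and 61.8 CPM (log2 fold change -1.33, SE 0.52, adjusted p = 0.151 from the same test). In each case the groups did not overlap, but the replicates with the Crtc1-/- label differed widely. Smooth muscle markers were lower together with Gpx8, 5 of 5 with 2 past the test and a median log2 fold change of -2.88, and their part in its values was not tested. Gpx2, the gut enzyme, had 0 and 2 counts against 0 and 1 count and was not tested. With either library with the Crtc1+/+ label left out, 0 members passed edgeR's quasi-likelihood test in eWAT, and the adjusted p of Gpx1, Gpx5 and Gpx6 then lay between 0.143 and 0.295, with an unadjusted p of 0.0369 or less for each. The loss was not particular to the family, since 0% of the 15697 and 16220 genes tested were called in these fits. Without replicate 1 of the other label 19% of all genes were called and without replicate 2 12.3%, with Gpx4 passing without either of them (adjusted p = 0.0441 and 0.0162 in the same test) and Gpx8 in the fit without replicate 1 (-2.17, adjusted p = 0.0227).

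**Figure D4:**
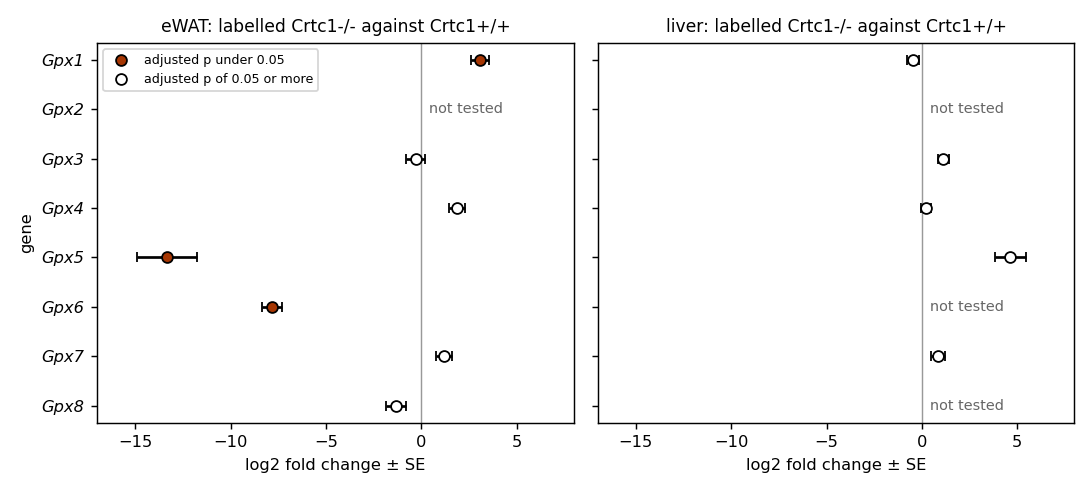
Log2 fold change of each gene with its standard error, libraries with the Crtc1-/- label against Crtc1+/+, in eWAT (left) and liver (right), with filled circles where edgeR's adjusted p was under 0.05. Gpx1, Gpx5 and Gpx6 pass in eWAT and no gene passes in liver, and the fitted value of Gpx6 rests on libraries with 2 counts.

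In liver 5 members passed the expression filter and 0 were called. The background in edgeR was 0.0598% of 11707 genes called higher and 0.0256% lower. Unadjusted, 2 of the 5 had p under 0.05 (edgeR's quasi-likelihood test). DESeq2, which called 2.66% of all genes after adjustment, called Gpx3 and Gpx5. Gpx1 was at 1981 and 1143 CPM with the Crtc1-/- label and at 2293 and 1972 CPM with the Crtc1+/+ label, ranges that overlapped (log2 fold change -0.45, SE 0.31, adjusted p = 0.463 by edgeR's quasi-likelihood test). Gpx4 was at 494 and 426 CPM against 445 and 352 CPM, also overlapping (log2 fold change 0.21, SE 0.26, adjusted p = 0.702 from the same test). For both of these main liver peroxidases the difference was within the spread between libraries. Gpx3 was at 29.0 and 37.2 CPM against 18.1 and 12.5 CPM (log2 fold change 1.11, SE 0.29, adjusted p = 0.148), and Gpx7 at 6.13 and 4.49 CPM against 3.64 and 2.31 CPM (log2 fold change 0.83, SE 0.38, adjusted p = 0.299), both by edgeR's quasi-likelihood test. Neither pair of groups overlapped.

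Gpx5 gave the widest difference in liver, at 51.1 and 7.52 CPM with the Crtc1-/- label and 1.28 and 1.05 CPM with the Crtc1+/+ label. The groups did not overlap, and the replicates with the Crtc1-/- label were far apart, 976 and 129 counts. The log2 fold change of 4.65 (SE 0.80) had an adjusted p of 0.0689 by edgeR's quasi-likelihood test, and without replicate 1 with the Crtc1-/- label it was 2.69 (adjusted p = 1.26e-05 in the same test). With that library left out 12.5% of all genes passed in liver, among them Gpx1 (-0.89, adjusted p = 0.0233) and Gpx3 (1.29, adjusted p = 0.00214). Without replicate 2 with that label 1.46% of genes passed, and Gpx5 was at 5.44 (adjusted p = 1.41e-05). Epididymis markers moved with it there too. They summed to 899 and 103 counts in liver with the Crtc1-/- label, with 18 and 8 of 23 above 3 counts, and to 24 and 31 counts in liver with the Crtc1+/+ label, with 1 and 3 above it. In replicate 1 with the Crtc1-/- label the markers stood at a median of 0.0918% of their mean count in eWAT with the Crtc1+/+ label, and Gpx5 at 0.107% of its own. Gpx6 stood at 4.53%, with 27 counts. Their part in the Gpx5 values was not tested. Gpx6 had 6 counts in the other library with the Crtc1-/- label and 2 in each with the Crtc1+/+ label. Its mean with the Crtc1-/- label, 0.882 CPM, was 5.61-fold over the floor of 3 counts. Replicate 1 carried that mean, at 1.41 CPM against 0.35 CPM in replicate 2. Gpx8 had 7 and 8 counts against 0 and 4, and Gpx2 had 6 and 2 counts against 2 and 2. None of these 3 passed the filter.

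Whether the genotype difference was itself different in the tissues was tested as an interaction in a single fit of all 8 libraries. It was called for 3 of 7 members, against 3.78% of 15587 genes with a positive and 3.16% with a negative difference. For Gpx1 the eWAT change exceeded the liver change by 3.48 on the log2 scale (SE 0.75, adjusted p = 0.0414 by edgeR's quasi-likelihood test), and for Gpx5 the difference was -18.01 (adjusted p = 0.00959 in the same test). Gpx6 was in this fit only through its counts in eWAT with the Crtc1+/+ label and had failed the filter in liver, so its fitted difference of -10.96 is given as a description. Gpx4 (1.57, adjusted p = 0.13), Gpx3 (-1.48, adjusted p = 0.18) and Gpx8 (-3.41, adjusted p = 0.117) did not pass in that test, nor did Gpx7 (0.26, adjusted p = 0.802). The Gpx8 value rests on liver counts of 0, 4, 7 and 8, and it ran from -8.24 to -2.42 with 1 library left out. The Gpx5 difference ran from -19.28 to -16.03 in the same way. With either liver library with the Crtc1+/+ label left out 0 of the members' differences passed, with 0% and 0.188% of all genes called in these fits, and the adjusted p of Gpx1 and Gpx5 then lay between 0.0601 and 0.138.

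Between the tissues the family differed widely in mice with the Crtc1+/+ label, where 7 members were in the fit and all were called, against 35% of genes higher and 19.8% lower in eWAT. Gpx5 (log2 difference 14.04), Gpx8 (7.80), Gpx6 (6.90), Gpx3 (6.55) and Gpx7 (1.74) were higher in eWAT. Gpx6 and Gpx8 had failed the filter in liver and were in the fit through eWAT, so their calls follow in part from the filter. Gpx6 had 2 counts in each of these liver libraries, so its fitted value is no bound, and its mean was at least 81.5-fold higher in eWAT. Gpx8 had 0 and 4 counts in liver, and its fitted difference ran from 6.81 to 12.63 with 1 library left out. With 1 library left out 5 to 7 members were called, and Gpx7 did not pass without liver replicate 2 with the Crtc1+/+ label (1.44, adjusted p = 0.0616). Gpx1 was lower by 4.39 (SE 0.59, adjusted p = 0.00181 by edgeR's quasi-likelihood test). Gpx4 was also lower in that fit, with a log2 difference of -1.40, but it was -0.003 when libraries were scaled by their totals, and in FPKM its tissue ranges overlapped. That scaling moved the median of all genes by 1.40, and relative to the median Gpx4 was lower by 2.01 under either. Its adjusted p was 0.0224, and between 0.0511 and 0.13 with any 1 of the 4 Crtc1+/+ libraries left out. In mice with the Crtc1-/- label 5 of 7 passed, against 18.9% of genes higher and 8.89% lower. Gpx3 (5.06), Gpx8 (4.396) and Gpx7 (1.996) were again higher in eWAT. Gpx5 and Gpx6 were lower there, with log2 differences of -3.98 and -4.06 (adjusted p = 0.0466 and 0.012 by edgeR's quasi-likelihood test). Gpx6 had at most 2 counts in eWAT, and its mean in liver was 9.74-fold over the floor. Liver replicate 1 carried that mean, with 27 counts against 6 in replicate 2. The Gpx5 difference kept its call in 8 of 17 alternative analyses, and was -1.996 (adjusted p = 0.232) without liver replicate 1 with the Crtc1-/- label. The Gpx8 difference no longer passed without either liver library of that label (adjusted p = 0.0603 and 0.0513), nor did that of Gpx7 without replicate 2 (0.0719), and these fits called 9.17% and 10% of all genes. Gpx1 (-0.91, adjusted p = 0.211) and Gpx4 (0.17, adjusted p = 0.757) did not pass in that test, and the sign of Gpx1 turned when libraries were scaled by their totals. In the FPKM of the libraries with the Crtc1-/- label, Gpx1 was at 1793 and 2130 in eWAT and at 2216 and 1294 in liver.

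The genes that supply the family with glutathione, electrons and selenium were followed as lists. In eWAT, of 13 genes for glutathione supply 3 rose and 1 fell in edgeR's test, with a median log2 fold change of 0.62. Called or not, 7 of the 13 were higher and 6 lower. DESeq2, which called 30% of all genes, called 5 higher and 3 lower. The 5-oxoprolinase Oplah rose by 2.68, the gamma-glutamyl transferase family member Ggt5 by 2.65 and the glutathione-degrading Chac1 by 2.51, while Ggt7, a relative of Ggt5, fell by 4.678, from 16.7 and 21.5 CPM to 1.04 and 0.42 CPM. Chac1 and Ggt5 take glutathione apart rather than make it, and Oplah recycles a product of that breakdown. The synthetase Gss (log2 fold change 0.98, adjusted p = 0.239 by edgeR's quasi-likelihood test) and the mitochondrial glutathione carrier Slc25a39 (1.25, adjusted p = 0.141) did not pass. Of 10 genes for glutathione and NADPH reduction, 1 rose, Glrx5, a glutaredoxin of mitochondrial iron-sulfur assembly, by 2.15. The pentose phosphate enzyme Pgd was at 1.38 (adjusted p = 0.106 from the same test).

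Other peroxide and superoxide scavengers gave 2 of 16 higher and 0 lower, with a median of 0.44. Extracellular superoxide dismutase Sod3 went from 76.7 and 58.9 CPM to 1231 and 999 CPM, a log2 rise of 4.04 (SE 0.41, adjusted p = 0.017 by edgeR's quasi-likelihood test). The mitochondrial thioredoxin reductase Txnrd2, itself a selenoprotein, rose by 2.18. The most abundant scavengers, Sod1 (0.92, adjusted p = 0.224) and Prdx1 (0.06, adjusted p = 0.915), did not pass. Of 10 genes for selenocysteine synthesis and selenium supply 0 passed in edgeR's quasi-likelihood test, 5 had an unadjusted p under 0.05 and DESeq2 called 4. Selenop, the selenium carrier of plasma, and Sephs2, the selenophosphate synthetase, were at 2.16 and 2.47 with an adjusted p of 0.0968 and 0.128. Both were highest in the library with 10.1% hepatocyte marker counts, Selenop at 1899 CPM there against 586 CPM in its replicate.

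Of 15 other selenoproteins, 2 rose and 0 fell in eWAT, with a median of -0.04. These were the small redox protein Selenow, from 133 and 73.2 CPM to 884 and 663 CPM (log2 rise 2.90), and Selenon of the endoplasmic reticulum (1.82). Msrb1, the methionine sulfoxide reductase, was at 1.67 with an adjusted p of 0.0624 by edgeR's quasi-likelihood test. Among 10 genes of ferroptosis and lipid peroxidation, Aifm2, which protects membranes independently of Gpx4, rose by 3.69 and 0 fell in that test, with a median of 0.81. DESeq2, which called 30% of all genes, called 5 of the 10 higher and 1 lower. The ferritin chains Ftl1 (1.43, adjusted p = 0.149) and Fth1 (1.15, adjusted p = 0.145) did not pass. In liver 0 genes of the 6 lists passed edgeR's quasi-likelihood test, 0 to 3 a list had an unadjusted p under 0.05, DESeq2 called 1 gene in each of 2 lists and none in the others, and the list medians lay between -0.26 and 0.27 on the log2 scale, with 0.00 for all genes. The lists were not tested as sets, and their eWAT counts stand beside 6.65% of all genes called higher and 5.54% lower.

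**Figure D5:**
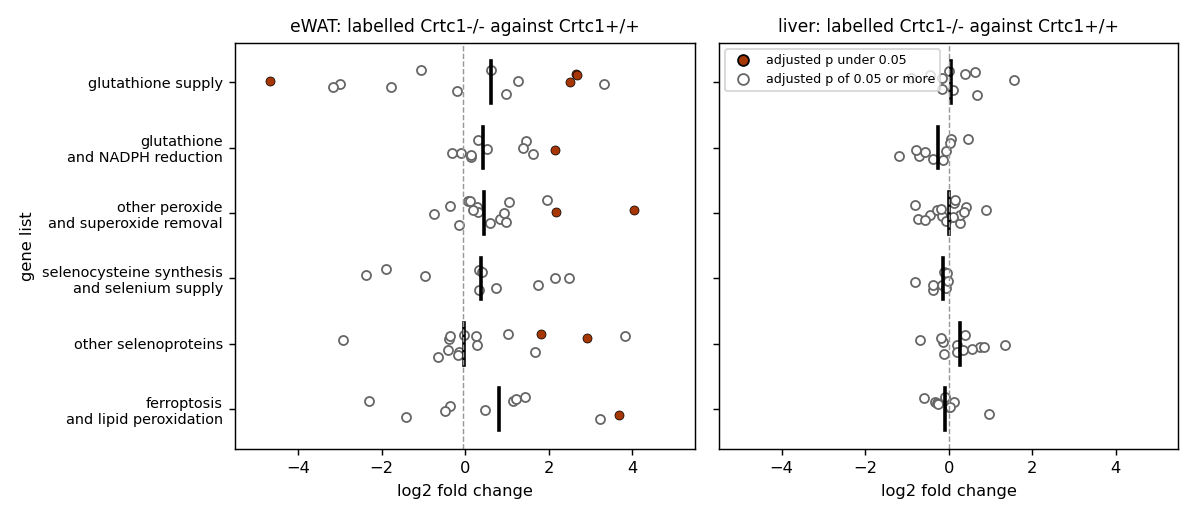
Log2 fold changes of the genes of 6 lists, libraries with the Crtc1-/- label against Crtc1+/+, in eWAT (left) and liver (right), with filled points for an adjusted p under 0.05, thick bars at list medians and a dashed line at the median of all genes. Sod3 at 4.04 and Ggt7 at -4.678 are the outermost called points in eWAT, and no point is filled in liver.

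Finally, the genes with the pattern most like each member were found by the root mean square difference of log2 CPM over the 8 libraries after centring each gene on its own mean. For Gpx5 these were Lcn8 (0.30), Spag11b (0.47) and Cst11 (0.48), all of the epididymis marker list, against a median of 5.61 over 15586 genes. Gpx6 had no gene so close, with Stap1 at 0.76 and Lcn2 at 0.80. Gpx1 was nearest to Gstz1 (0.19), Pde9a (0.21) and Pir (0.24), and Gpx4 to Zdhhc18 (0.12), Carhsp1 (0.13) and Snx8 (0.15). For Gpx3 the nearest was C1qtnf12 (0.42), for Gpx7 Gng2 (0.17) and for Gpx8 Pgm5 (0.46). The 8 points of each gene share libraries and scaling, and the likeness is given as a description.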

How the data were processed

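The authors sequenced RNA of liver and eWAT at BGI and deposited estimated counts of 19348 genes, which carry no normalization. A second table gives FPKM, which the authors divided by transcript length and by sequencing depth. Per the labels, the processing notes name HISAT, Bowtie2 and the GRCm38.p6 build, and the counting tool and annotation are not given in the sources used here. Counts were rounded, and the counts of the 8 members were already whole in all libraries. All 8 libraries were used, grouped by the labels.

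Within each tissue, genes were filtered with filterByExpr, scaled by TMM and tested by edgeR 4.0.16 (quasi-likelihood test, R 4.3.3), p adjusted by Benjamini-Hochberg across every gene tested, threshold 0.05. Contrasts of tissues and their interaction with genotype came from a single fit of 8 libraries. Standard errors were taken as the size of the log2 fold change over the root of the F statistic. The paper's methods read as if both tissues came from the same 2 mice of a genotype, so the tissue contrasts may not be independent of the mouse. With 2 against 2, an exact permutation test cannot give a two-sided p under 0.333, and the model's p-values measure the spread between these mice only. A group in which neither library exceeded 3 counts of a gene was set to that floor. It was 0.144 to 0.208 CPM within a tissue, and 0.140 or 0.244 CPM in the tissue contrasts of Gpx6. The fold given is the mean of the other group over that floor. It is a lower bound for the ratio of means only, and 1 library can carry it. Poisson intervals cover counting error only.

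Named genes are the 8 members, up to 4 called genes with the largest change and the 2 most abundant genes of each pathway list, the 3 most abundant of a marker list, the 3 genes most like each member, and Crtc1. Crisp1, Ces5a, Pgbd1, Zscan12 and Zkscan3 were added after their values were seen. The members and lists were chosen with earlier results of these data known. Alternatives were DESeq2 1.42.0, limma 3.58.1 on quantile-normalized log2(FPKM + 1) and log2(FPKM + 0.1), other filters and scalings, the study's threshold, a replicate block and each library left out. Scripts were tested on simulated data. The coding sequences came from GENCODE M21 and were aligned with Biopython 1.88, the upstream sequences came from a RefSeq table, and figures were drawn with matplotlib.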

Additional observations from a re-analysis of the deposited data

Results flagged for a closer look

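The effect of the genotype label was called different between the tissues for Gpx1, Gpx5 and Gpx6 by the interaction term of edgeR's quasi-likelihood test. The eWAT log2 fold change minus the liver one was 3.48 for Gpx1 (adjusted p = 0.0414 in edgeR) and -18.01 for Gpx5 (adjusted p = 0.00959). For Gpx6 it was -10.96, a description only, since that gene had failed the filter in liver and was in the fit through eWAT with the Crtc1+/+ label. The Gpx1 term was no longer past 0.05 in any of the 6 fits that left out 1 liver library or 1 eWAT library labelled Crtc1+/+, nor with a replicate block, where it ranged from 3.14 to 3.95. The Gpx5 term was past 0.05 in every alternative but those without a liver library labelled Crtc1+/+. The fitted Gpx6 value rests on libraries with 2 counts and is no bound.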

How the results depend on the processing

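Of 525 recalculated fold changes of members, 453 kept direction and side of the threshold, 40 lost the threshold, 26 gained it and 6 changed sign. The sign changes were Gpx3 in eWAT without Crtc1+/+ replicate 1 (0.014, with a range of -0.52 to 0.014 over the libraries left out), Gpx1 between tissues with the Crtc1-/- label under limma on log2(FPKM + 1) and log2(FPKM + 0.1) (0.38 in both) and under scaling by library totals (0.17), and the Gpx7 interaction without liver Crtc1+/+ replicate 1 (-0.10) or without eWAT Crtc1-/- replicate 1 (-0.15), with a range of -0.15 to 0.74 over the libraries left out. In eWAT the number of members called was 3, and became 6 with DESeq2, which called 30% of all genes, and 0 to 5 with 1 library left out, where 0% to 19% were called. In liver it was 0, and became 2 at the study's threshold (absolute log2 fold change over 1, unadjusted p under 0.01), 2 with DESeq2 (2.66% of all genes called), 1 without an expression filter (1.89%) and 0 to 3 with 1 library left out (0.00817% to 12.5%). Between tissues with the Crtc1-/- label it was 5, and 3 to 5 with 1 library left out. For the interaction it was 3, and became 5 with DESeq2 (13.2%), 5 with limma on log2(FPKM + 1) (16.3%) and 0 to 4 with 1 library left out (0% to 13.9%). Where a fit had 1 library on one side, that library was assumed to vary like the others. The cause of these changes was not tested.

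With the replicate number as a block, 0 members were called in eWAT and 1 in liver (Gpx5), beside 0% and 0.7% of all genes. The numbers are not stated to mark a shared mouse or day, and deviations of equal numbers correlated at 0.0086 in eWAT, 0.0516 in liver, 0.152 between tissues with the Crtc1+/+ label and 0.0356 with the Crtc1-/- label, so the block was not used.

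At 16560070 counts or more per library, depth limits Gpx2, Gpx6 and Gpx8 in liver and Gpx2 and the low side of Gpx6 in eWAT, while the other values are limited by 2 mice a group. Epididymis, adipocyte and endothelial markers vary between eWAT libraries along with the genotype label, and hepatocyte markers stand apart in 1 library. Any reads that Gpx4 shares with Gpx4-ps2 or AC122253.3 could not be followed.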
